A study of Mus musculus with 4 samples.

Results

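Cadherins and protocadherins are calcium-dependent adhesion proteins of the cell surface, and their RNA levels were examined in mouse motor neuron cultures with and without doxycycline. Members were the rows of the deposited table whose gene symbol marks a numbered cadherin, a protocadherin, Celsr1 to Celsr3, Fat1 to Fat4 or Dchs1. The rule found 41 of 11747 rows. Of these, 40 name 1 gene each and 1 joins 37 symbols of the alpha and gamma protocadherin clusters. All 41 rows passed the filter on low values. RefSeq has 100 protein-coding mouse genes that fit the same names, of which 75 stand in a listed row. Among the 25 that are not listed under their symbol are 6 type II cadherins (Cdh7, Cdh9, Cdh12, Cdh18, Cdh19 and Cdh20), 9 of 22 beta protocadherins, Cdh15, Fat2, Pcdh11x, Pcdh12, Pcdh15 and Pcdh20. Every row of the table has at least 101 estimated reads in the library where it is highest. Genes without a row may therefore still be expressed.

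The cultures came from the A172LoxP embryonic stem cell line, engineered to carry a doxycycline-inducible transgene for a transcription factor. Embryoid bodies, which are free-floating cell aggregates, received 0.5 µM all-trans retinoic acid and 1 µM of the Sonic hedgehog agonist purmorphamine for 2 days. For a further 2 to 3 days they were grown with 2 µg/mL doxycycline (Dox Positive) or with vehicle (Dox Negative), with 2 libraries in each group. All cells are of this engineered line and no group had doxycycline without the transgene, so effects of the drug and of the factor cannot be told apart. Libraries are called here by the numbers in the table, 1 and 7 without and 2 and 8 with doxycycline. Normalized read counts summed to between 26449555 and 27047458 per library, from an estimated 22434745 to 30235778 reads. Nothing in the labels says whether the libraries come from separate cultures, so the p-values reflect a spread between libraries that could be purely technical.

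Classical cadherins hold like cells together through their extracellular repeats and bind catenins inside the cell, which link them to actin. Type I members such as E-cadherin and N-cadherin mark epithelia and neural tissue, and type II members are expressed in combinations that differ between motor neuron pools of the spinal cord. Non-clustered delta protocadherins and the clustered alpha, beta and gamma protocadherins are mostly neural. Celsr proteins belong to the core of planar cell polarity and guide axons and migrating neurons, while the giant Fat and Dachsous cadherins bind each other across cell borders and act on polarity and growth.

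Letters of the region before the annotated start are shown for Cdh6, which was lower with doxycycline, and Fat3, which was higher. This pair was picked because both members passed the test in opposite directions and their upstream regions differ in CpG content. It does not stand for the other members. Both are from RefSeq on GRCm38.p6, the strand of transcription, 250 bases that end just before the start, with each CpG dinucleotide in capitals. The Cdh6 stretch lies on the minus strand at chr15:13173676-13173925, and that of Fat3 on the minus strand at chr9:16502055-16502304.
Cdh6: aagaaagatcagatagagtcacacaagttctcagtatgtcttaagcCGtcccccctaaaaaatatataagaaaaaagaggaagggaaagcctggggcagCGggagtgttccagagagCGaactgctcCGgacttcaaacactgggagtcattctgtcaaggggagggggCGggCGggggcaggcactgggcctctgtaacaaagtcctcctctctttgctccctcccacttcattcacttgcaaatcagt
Fat3: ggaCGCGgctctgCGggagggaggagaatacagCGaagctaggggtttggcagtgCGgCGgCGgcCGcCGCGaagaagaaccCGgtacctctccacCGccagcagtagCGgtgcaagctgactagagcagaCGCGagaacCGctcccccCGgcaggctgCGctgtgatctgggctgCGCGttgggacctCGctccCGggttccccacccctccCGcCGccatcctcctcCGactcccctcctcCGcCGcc
The Cdh6 stretch holds 6 CpG and 51.2% G or C, and that of Fat3 27 CpG and 70.4%. Over 27025 RefSeq genes with such a window the median was 6 CpG, and over the 17 members with one it was 18. Those 17 include Pcdh7, with 7 CpG and 58.4% G or C, whose window overlaps an annotated exon and is not printed. Members that did not pass had few or many CpG in either direction. Of those lower, Cdh10 (-0.56) had 2 and Pcdh9 (-0.81) had 18. Of those higher, Fat1 (0.10) had 2 and Celsr2 (0.21) had 32. A link between CpG content and change was not tested. The homeodomain core TAATTA, a palindrome read the same on both strands, was in none of the 17 windows and in 4.90% of all windows. The E-box CANNTG, also searched on both strands, was in 7 of the 17 and in 66.0% of all. Cdh6 had 1 E-box, and Fat3 and Pcdh7 had none in these bases. These counts describe the letters in the windows and say nothing of what binds there.

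Of the 41 rows found by the rule 4 passed the test of doxycycline against vehicle, with Celsr1 and Fat3 higher and Pcdh7 and Cdh6 lower. The test was limma's moderated test on log2(normalized count + 1), and a call means an adjusted p (Benjamini-Hochberg over all 11747 rows) under 0.05. Of the 41 members 2 were called higher, beside 0.579% of all rows, and 2 lower, beside 1.79% of all rows. In either direction the call was made for 9.76% of members and 2.37% of all rows. At an unadjusted p under 0.05 there were 5 members higher and 12 lower, where all rows gave 9.58% and 11.5%. Together that is 41.5% of members beside 21.1% of all rows. The log2 change was below 0 in 28 of 41 members and in 49.4% of all rows, with a median of -0.21 for members and 0.00 for all rows. Outside the protocadherin clusters it was below 0 in 14 of 27 members (51.9%), near the share of all rows, with a median of -0.08. The 13 beta protocadherin rows and the joint row were all below 0. Groups did not overlap in 27 members, 8 higher (26.7% of all rows) and 19 lower (26.5%) with doxycycline, which is 65.9% of members beside 53.2% of all rows. In fits that leave out 1 library, the lone library of a group is assumed to vary like the other group. Such fits called 2 members without library 1, 2 without library 2, 6 without library 7 (Celsr3 and Dchs1 added, both lower) and 1, Pcdh7, without library 8.

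**Figure D1:**
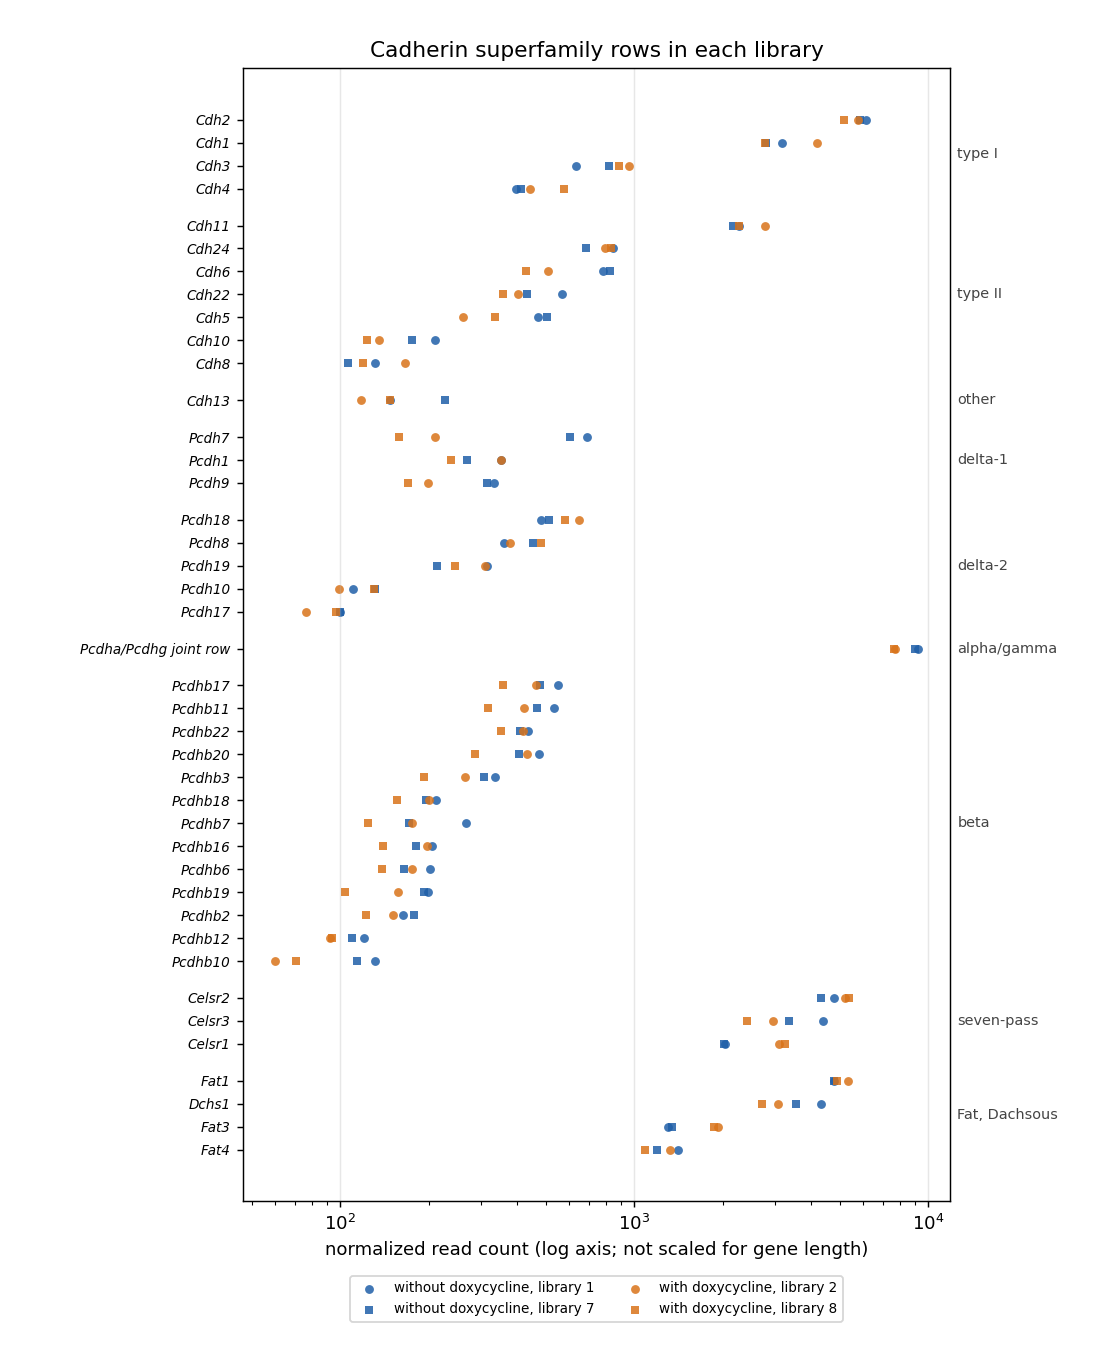
Normalized read count (log axis, not scaled for gene length) of each of the 41 rows in the 4 libraries, grouped by family; blue marks are libraries without and orange marks libraries with doxycycline. Pcdh7 has the widest gap between colours, with 689.9 and 603 without against 209.85 and 159 with doxycycline, while Cdh1 and most delta-2 rows have overlapping marks.

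Pcdh7, a delta-1 protocadherin also known as NF-protocadherin with roles in axon growth, had the largest change of all 41 members in either direction. It stood at 689.9 (library 1) and 603 (library 7) normalized counts with vehicle, falling to 209.85 (library 2) and 159 (library 8) with doxycycline. Both vehicle libraries lay far above both libraries with doxycycline. Mean levels were 647 ± 61.2 and 184 ± 36.1 (SD, n = 2 each). The log2 change was -1.82 ± 0.17 (SE; limma, adjusted p = 0.0155), a ratio of 0.284. Read numbers were 772 and 562 against 178 and 180, and counting error alone would give an SE of 0.09. The call stood whichever library was left out, with changes from -2.02 to -1.62 (limma, adjusted p from 0.00368 to 0.0361). Library 2 minus library 1 was -1.71, and library 8 minus library 7 was -1.92 on the log2 scale.

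The other listed delta-1 protocadherins, which like Pcdh7 carry cytoplasmic motifs that bind protein phosphatase 1, did not pass. Pcdh9 had 332 and 316 normalized counts in the vehicle libraries, against 199 and 170.2 with doxycycline. Its groups were apart, with a change of -0.81 ± 0.14 that missed the threshold (limma, adjusted p = 0.0545) and passed under robust empirical Bayes. Pcdh1 was at 353 and 269.5 without and 351 and 237 with doxycycline (-0.09 ± 0.23; limma, adjusted p = 0.860), so that its libraries interleaved. For Pcdh1, libraries 1 and 2 were high and libraries 7 and 8 low.

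Delta-2 protocadherins, several of which recruit the WAVE actin regulator, had small differences in both directions, and none of the 5 listed passed. Pcdh18 had the smallest p and the highest count of the group. It was at 481 and 513 without and 649.6 and 583 with doxycycline, a change of 0.31 ± 0.11 (limma, adjusted p = 0.181). Pcdh19, whose human counterpart is an epilepsy gene, was at 315 and 213 without and 311 and 245 with doxycycline. Pcdh8 was at 360.1 and 453 without and 378 and 482 with doxycycline. For both genes the spread inside each group exceeded the difference between groups. Pcdh10, known as OL-protocadherin, was at 111 and 131 against 99.0 and 131, and Pcdh17 at 100.1 and 99.8 against 76.6 and 97.0 normalized counts. Pcdh17 had 65 to 112 reads per library, and its change of -0.21 had an SE of 0.23, of which 0.15 would come from counting alone.

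Type II cadherins, whose combinations sort motor neurons into pools, gave 1 call among 7 listed genes. Cdh6, known as K-cadherin, was at 784 and 825 normalized counts without and 508 and 429.6 with doxycycline. The groups did not overlap, and the log2 change was -0.78 ± 0.12 (limma, adjusted p = 0.0388). It was -0.62 between libraries 2 and 1 and -0.94 between 8 and 7. The call was lost without library 1 (limma, adjusted p = 0.0598), 2 (0.0534) or 8 (0.149), and without an intensity trend (0.0708), with the change between -0.90 and -0.66 when a library was left out.

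Cdh5, VE-cadherin of blood vessels, was at 469 and 504 without and 261 and 335 with doxycycline. That is -0.72 ± 0.15 with groups apart, but not past the test (limma, adjusted p = 0.0789). Of 9 endothelial markers only Kdr, Tek and Flt1 were listed, summing to 729 and 1110.2 without and 651 and 948 with doxycycline. Pecam1, Tie1, Cd34, Emcn, Cldn5 and Esam were not listed. Kdr was at 121 and 126 without and 69.6 and 66.2 with doxycycline (-0.85 ± 0.21; limma, adjusted p = 0.106). The other listed markers had overlapping groups. Tek was at 202 and 261 against 160 and 239 (-0.23 ± 0.24), and Flt1 at 407 and 724 against 421 and 643 (-0.06 ± 0.32). Whether endothelial cells had a part in the Cdh5 values was not tested.

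A further pair of type II genes had lower values with doxycycline and did not pass. Cdh10 was at 210.0 and 175 against 136 and 123.5, and Cdh22 at 568 and 431 against 401 and 356 normalized counts. Both had separate groups, with adjusted p of 0.159 and 0.247 (limma). Cdh11, the mesenchymal OB-cadherin and the most abundant of the type II rows, was at 2268 and 2166 without and 2773 and 2270.5 with doxycycline (0.18 ± 0.11; limma, adjusted p = 0.402). The groups did not overlap, but library 8 was almost level with library 1. Cdh24 (846 and 684 against 795 and 834) and Cdh8 (131 and 106 against 166 and 119) had overlapping groups.

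No type I cadherin passed. Cdh2, or N-cadherin, the main cadherin of neural tissue, had the highest level of all members per length, 2111 normalized counts per kb of coding length over the 4 libraries. It was at 6155 and 5860.2 normalized counts without and 5764 and 5172 with doxycycline, a change of -0.14 ± 0.08 (limma, adjusted p = 0.363). Its counts therefore differed little between group means (6007 ± 208 and 5468 ± 418; SD, n = 2), with both vehicle libraries above both others. Cdh1, or E-cadherin, was second at 1222 per kb. Its libraries overlapped, at 3182 and 2807 without and 4197 and 2775 with doxycycline, and library 2 stood above the others. Library 2 also had the lowest value of Snai1, a repressor of E-cadherin transcription, at 373 normalized counts beside 778, 919 and 865 in libraries 1, 7 and 8. The other listed repressors were not lowest in library 2. Zeb1 (1665) and Twist1 (143) were lowest in library 8, and Tcf3 (10246) and Tcf4 (1979) in library 1. Of 9 listed endoderm and epithelium markers, Krt8, Krt18 and Cldn6 were highest in library 2, and Sox17, Gata4, Gata6 and Sox7 were lowest there. Foxa2 and Epcam were highest in library 8. Any link among these values was not tested.

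Placental cadherin, Cdh3, was at 633 and 824 without and 958 and 886 with doxycycline (0.35 ± 0.14; limma, adjusted p = 0.234). Cdh4, or R-cadherin, was at 396 and 413 against 442 and 578 (0.32 ± 0.15; limma, adjusted p = 0.293). Neither group pair overlapped. Cdh13, a cadherin held in the membrane by a lipid anchor in place of a cytoplasmic tail, was at 147 and 228 without and 118 and 147 with doxycycline (-0.47 ± 0.26; limma, adjusted p = 0.360), library 8 being level with library 1.

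**Figure D2:**
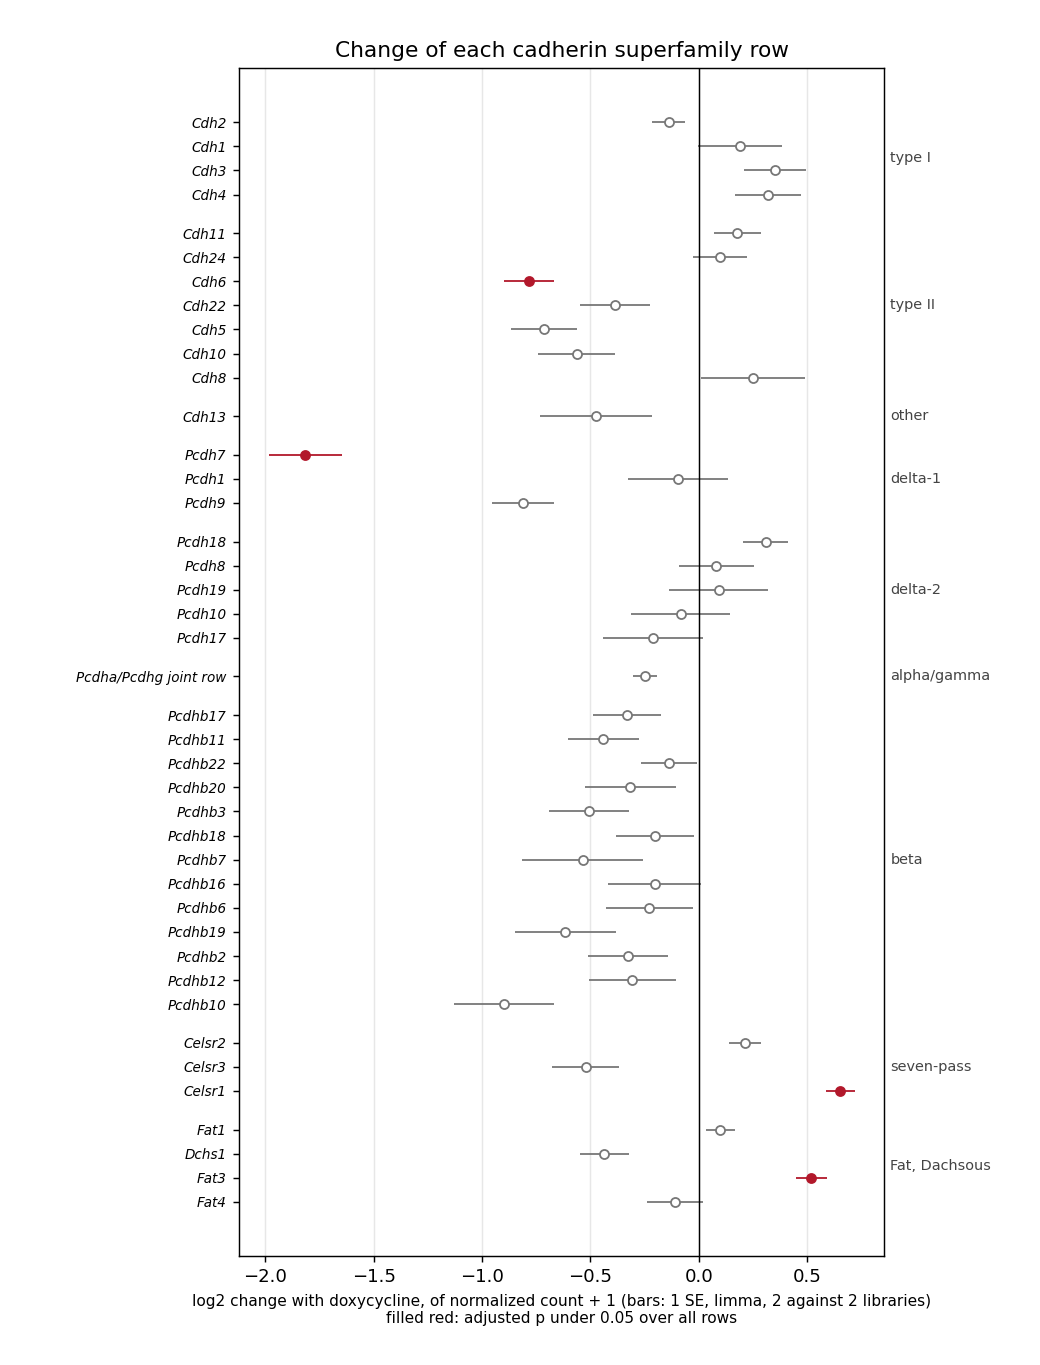
Log2 change with doxycycline of each of the 41 rows (horizontal axis, of normalized count + 1; points are limma estimates from 2 against 2 libraries, bars 1 SE), grouped by family; filled red marks have an adjusted p under 0.05. Pcdh7 (-1.82) and Cdh6 (-0.78) lie left of 0 and Celsr1 (0.65) and Fat3 (0.52) right of it, and every beta protocadherin point lies left of 0.

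Celsr genes, which encode the flamingo receptors of planar cell polarity, had separate groups in all 3 cases, as did 53.2% of all rows, and did not share a direction. Celsr1, the member typical of dividing neural progenitors, was at 2034 and 2013 normalized counts without and 3104 and 3264 with doxycycline. Its log2 change was 0.65 ± 0.07 (limma, adjusted p = 0.0204), with both libraries of a group close together. The call was lost without library 8 (0.62; limma, adjusted p = 0.0911) and without an intensity trend (adjusted p = 0.0522), and stood without library 1, 2 or 7. Celsr3, the member typical of postmitotic neurons, was at 4389 and 3354 without and 2964 and 2411 with doxycycline. That change of -0.52 ± 0.16 did not pass (limma, adjusted p = 0.146). Celsr2 was at 4776 and 4330.2 without and 5199 and 5355 with doxycycline (0.21 ± 0.07; limma, adjusted p = 0.178).

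Per kb of coding length, Celsr1 made up 18.4% and 21.0% of the summed Celsr level with vehicle, against 27.6% and 29.5% with doxycycline. Celsr3 made up 36.6% and 32.1% without and 24.3% and 20.1% with doxycycline. The ratio of Celsr1 to Celsr3 per kb was 0.504 and 0.653 without and 1.14 and 1.47 with doxycycline, so the order of the levels of these genes differed between the groups. Celsr2 was the highest of the 3 in every library, reaching 50.4% in library 8.

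Fat3, which shapes dendrites of retinal neurons, was at 1306 and 1340.0 without and 1926 and 1869 with doxycycline. Groups were far apart relative to their spread, and the change was 0.52 ± 0.07 (limma, adjusted p = 0.0323). The call was lost without library 1 (limma, adjusted p = 0.0888), 2 (0.109) or 8 (0.141) and without an intensity trend (0.0717), while the change stayed between 0.50 and 0.54 in those fits that leave out a library. Fat1 was at 4759 and 4770.4 without and 5311 and 4906 with doxycycline (0.10 ± 0.07; limma, adjusted p = 0.453). Fat4 is the main Fat partner of Dachsous in mammals. It was at 1403 and 1193 against 1324 and 1088, with overlapping groups (limma, adjusted p = 0.684). Dchs1, the Dachsous ligand and receptor of Fat4, was at 4307 and 3554 without and 3083 and 2715 with doxycycline, -0.44 ± 0.11 that did not pass (limma, adjusted p = 0.118). The ratio of Fat4 to Dchs1 per kb was 0.215 and 0.222 without and 0.284 and 0.265 with doxycycline.

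**Figure D3:**
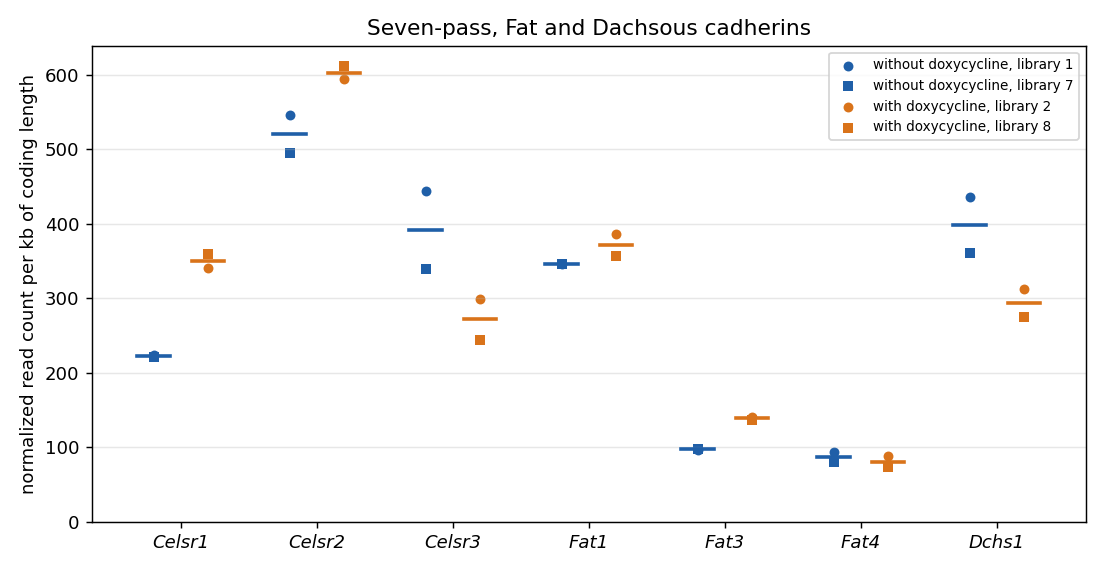
Normalized read count per kb of coding length for the Celsr, Fat and Dachsous genes; points are libraries (blue without, orange with doxycycline) and short lines are group means of 2 libraries. Celsr1 rises from a mean of 222 to one of 349.8 and Celsr3 has means of 391 and 271, so that their order is reversed, while the marks of Fat4 overlap.

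Clustered protocadherins give neurons a surface identity through the combination of promoters chosen in each cell. All 13 listed beta protocadherins had a log2 change below 0, from -0.90 to -0.14 with a median of -0.33, and none passed the test (limma, adjusted p from 0.113 to 0.633). Over all rows 49.4% were below 0. At an unadjusted p under 0.05 there were 4 of the 13, all lower, beside 11.5% of all rows. The groups of 7 did not overlap, all lower, beside 26.5% of all rows. These genes are neighbours in 1 cluster and are similar in sequence, so they are not independent of each other, and reads from near-identical stretches are uncertain. Summed, the 13 rows were at 3828 (library 1) and 3374 (library 7) normalized counts with vehicle, against 3208 (library 2) and 2459 (library 8) with doxycycline. Library 2 minus 1 was -0.26 and library 8 minus 7 was -0.46 for the sum on the log2 scale. Thus the vehicle libraries were higher, but library 2 lay nearer to library 7 than to library 8.

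The beta gene of smallest p was Pcdhb10, at 131 and 114 without and 60.1 and 70.6 with doxycycline (-0.90 ± 0.23; limma, adjusted p = 0.113), from 51 to 147 reads. The highest count belonged to Pcdhb17, at 551 and 477 without and 463 and 358 with doxycycline (-0.33 ± 0.16; limma, adjusted p = 0.301). Pcdhb11 was at 533 and 466 against 422 and 319. Pcdhb19 was at 199 and 193 against 157 and 104, and Pcdhb3 at 336 and 308 against 265 and 193. At the other end Pcdhb22, the last gene of the cluster, was at 433 and 409 against 417 and 351, with overlapping groups. Levels per kb of coding length ran from 39.3 for Pcdhb10 to 193 for Pcdhb17 and did not follow the order of the genes along the cluster.

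**Figure D4:**
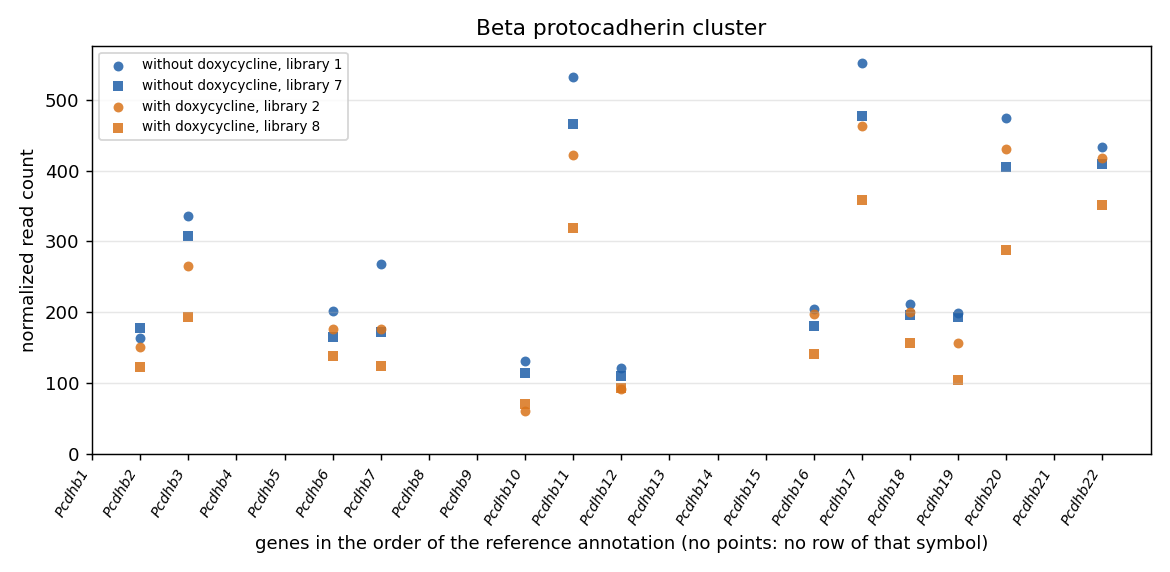
Normalized read count of each beta protocadherin (vertical axis) with the genes in the order of the reference annotation (horizontal axis); points are libraries, blue without and orange with doxycycline, and 9 genes have no row. Library 8 is lowest for 11 of the 13 listed genes, and Pcdhb11 and Pcdhb17 stand above the genes beside them in every library.

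Transcripts of the alpha cluster share constant exons, as do those of the gamma cluster, and the deposited table gives both clusters 1 joint row of 15 alpha and 22 gamma symbols. It was at 9233 and 9001 normalized counts without and 7714 and 7656 with doxycycline. Libraries of a group agreed closely, and the change of -0.25 ± 0.06 did not pass (limma, adjusted p = 0.0881). No single alpha or gamma gene can be read from it.

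Cdh23, a long cadherin of the hair cell tip link, was outside the rule because the table gives its row no symbol, and was named from its accessions after its values were seen. It was at 107 and 85.9 without and 237 and 259 with doxycycline, a rise of 1.36 ± 0.19 (limma, adjusted p = 0.0326). The call was lost without library 2 (limma, adjusted p = 0.0961) or 8 (0.173).

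Per kb of coding length the order of the members was led by Cdh2 (2111), Cdh1 (1222) and Cdh11 (992), followed by Celsr2 (561). Group means of Cdh2 were 2210.3 and 2012, and those of Cdh1 were 1129 and 1314, so these 2 kept their order in both groups. Fat1 (358.5), Dchs1 (346), Cdh24 (337), Cdh3 (335) and Celsr3 (331) came next. Their range was narrower than the difference between library groups for Dchs1 or Celsr3, and their order is not resolved. Pcdh7 was at 172 without and 49.0 with doxycycline on this scale. Pcdh10 (37.2) and Pcdh17 (26.9) were lowest. Without scaling for length 8 of the 10 highest members remained in that set, and with transcript length all 10 did.

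Genes that bind or regulate cadherins were taken from 9 lists with 89 listed genes. Of these none was called higher and 4 were called lower, beside 0.579% and 1.79% of all rows, and their median log2 change was 0.04. The lists and members were compiled with earlier results of these data known. Of 11 catenins and junction adaptors 1 was lower, Ctnna2, the neural alpha-catenin. It was at 2140.3 and 2008 without and 1270 and 1132 with doxycycline (-0.79 ± 0.09; limma, adjusted p = 0.0220). The ubiquitous Ctnna1 was at 9231 and 9484 against 10534 and 10279.7 (limma, adjusted p = 0.203), and beta-catenin, Ctnnb1, at 30300.9 and 30242 against 34599 and 31107 (limma, adjusted p = 0.391).

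Of 13 core planar cell polarity genes, Prickle1 was lower, at 1310.1 and 1264 without and 732 and 792 with doxycycline (-0.76 ± 0.09; limma, adjusted p = 0.0220). The other 12 were not called, 10 of the 13 having values above 0. Among 18 genes of the Fat, Dachsous and Hippo pathways Fjx1, the mammalian counterpart of a fly kinase that modifies these cadherins, was lower. It was at 1275 and 1370.0 against 765 and 873 (-0.69 ± 0.10; limma, adjusted p = 0.0355). Of 7 listed desmosomal cadherins, calsyntenins and related genes, Ret, a receptor with cadherin-like domains and a motor neuron gene, was lower, at 3305 and 2783 without and 1088 and 1047 with doxycycline (-1.51 ± 0.10; limma, adjusted p = 0.0074). Clstn2 missed the threshold, at 1242 and 1170.3 against 740.4 and 537 (-0.93 ± 0.16; limma, adjusted p = 0.0501).

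No gene was called among 13 cytoplasmic partners of protocadherins, which include WAVE complex and focal adhesion kinase genes, or 7 cleavage enzymes. The same held for 11 factors of cluster promoter choice, 5 repressors of the Snail, Zeb, Twist and E protein families, and 4 nectins. In the list of cytoplasmic partners Dab1 (-0.40 ± 0.07) and Cyfip2 (-0.44 ± 0.08) had the smallest p (limma, adjusted p = 0.0541 and 0.0636). Among cleavage enzymes the sheddase Adam17 had a log2 change of 0.20 (limma, adjusted p = 0.270). Among promoter-choice factors the smallest p belonged to the DNA methyltransferase Dnmt3b (-0.14) and the cohesin release factor Wapal (0.10), with adjusted p of 0.434 and 0.504 (limma). Among repressors it belonged to the E proteins Tcf4 (0.14) and Tcf3 (0.12), with adjusted p of 0.350 and 0.365 (limma). Of the nectins it belonged to Pvrl3 (0.26) and Pvrl2 (0.06), with adjusted p of 0.155 and 0.742 (limma). Ctcf, which binds protocadherin cluster promoters, was at 4339 and 4461 without and 4597 and 4372 with doxycycline (0.03 ± 0.06). Without library 8 the calls of Ctnna2, Prickle1 and Fjx1 were lost (limma, adjusted p = 0.0902, 0.0765 and 0.0907), those of Prickle1 (0.0668) and Fjx1 (0.0956) also without library 2. Without an intensity trend Ctnna2 (0.0577) and Fjx1 (0.0756) were not called.

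**Figure D5:**
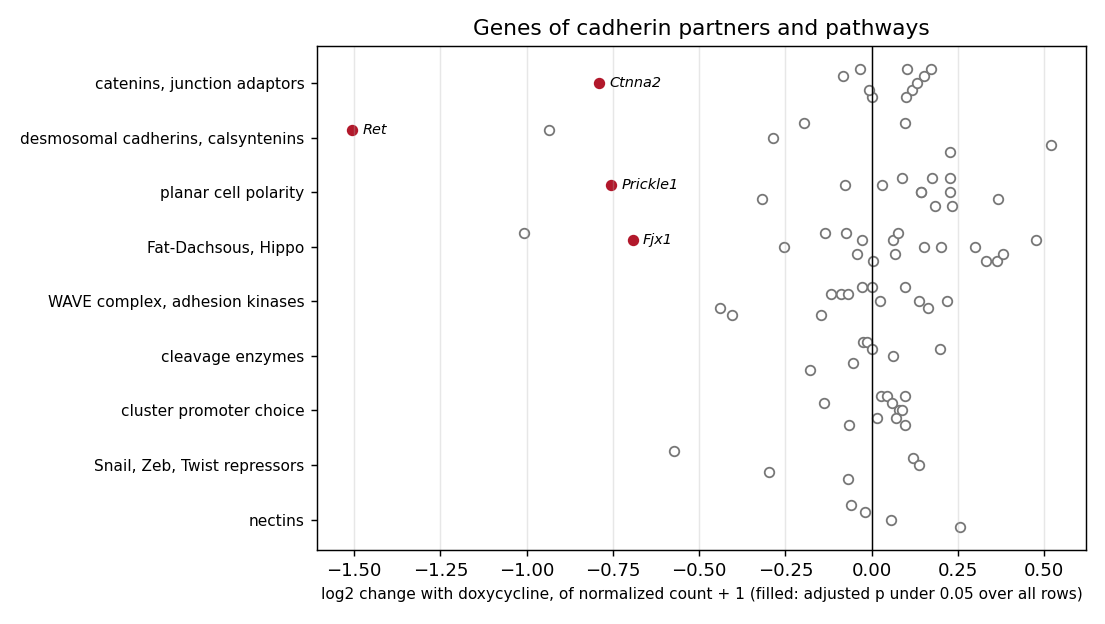
Log2 change with doxycycline (horizontal axis, of normalized count + 1, from 2 against 2 libraries) of the 89 listed partner genes in 9 lists, 1 point per gene; filled red points have an adjusted p under 0.05. The 4 filled points, Ret, Ctnna2, Prickle1 and Fjx1, all lie left of 0, and the lists of cleavage enzymes and of cluster promoter choice stay within 0.20 of 0.

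Markers of cell types are given as measured, and only the motor neuron and pan-neuronal lists held calls. The labelled motor neuron type was present in the vehicle libraries by 9 of 10 listed motor neuron markers, Slc5a7 being the gene not listed. These summed to 15082 and 14274 normalized counts without and 6379 and 5520.03 with doxycycline. Of the 9, 8 were called lower, Ret among them, beside 1.79% of all rows. The other, Lhx3, was at 1352 and 974 without and 1819 and 1546 with doxycycline (0.55 ± 0.17; limma, adjusted p = 0.155), with separate groups. All 12 listed pan-neuronal genes had a log2 change below 0 and 10 were called lower, Tubb3 (-0.92) and Syt1 (-0.18) being the others. Among all rows 49.4% were below 0 and 1.79% were called lower. The 12 summed to 167539.7 and 148545 without and 82015 and 66199.6 with doxycycline. The 11 neural progenitor markers summed to 39606 and 41457 without and 41153 and 45348 with doxycycline, with none called, and Vim made up the largest share of that sum. Their log2 changes were above 0 in 9 of the 11, with a median of 0.23. Pax6 (0.52), Hes1 (0.51), Sox1 (0.50), Fabp7 (0.48) and Sox2 (0.43) had separate groups, higher with doxycycline, without passing the test (limma, adjusted p from 0.0740 to 0.243). Olig2 (0.19) and Notch1 (0.15) also had separate groups, higher with doxycycline. Nkx6-1 (-0.24) and Nes (-0.13) had separate groups that were lower with doxycycline (limma, adjusted p = 0.198 and 0.294). Hes5 and Vim had overlapping groups. Among all rows 26.7% had separate groups that were higher and 26.5% separate groups that were lower with doxycycline. In bulk libraries fewer cells of a type and less RNA per cell cannot be told apart. The part of these differences in the values of Pcdh7, Cdh6, Celsr1, Celsr3, Fat3, Ctnna2 or the clustered protocadherins was not tested.

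None of the markers of other cell types was called. Endoderm and epithelial markers summed to 20514 and 21515 in libraries 1 and 2 and to 24265 and 24762 in 7 and 8, and mesoderm and fibroblast markers to 5749 and 5622 against 6978 and 6214. In the mesoderm and fibroblast list Col1a2 (0.87), Col1a1 (0.31) and Pdgfrb (0.29) had separate groups, higher with doxycycline (26.7% of all rows). Twist1 (-0.30) had separate groups that were lower (26.5%), and the others of that list overlapped. Of 8 pluripotency markers 6 were listed and none was called. Of 8 neural crest and glial markers 2 were listed, and Sox10, Foxd3 and Gfap were not among them.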

How the data were processed

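Total RNA of 4 samples was sequenced from Illumina TruSeq libraries, according to the labels. CASAVA, TopHat2, HTSeq, DESeq and the build mm9 are named, without versions or settings, per the submitters' processing notes. Values deposited by the authors are a signal for each gene, the normalized read count, not scaled for length; they behave as counts divided by 1 factor per library. All values under 500 lay within 0.1 of whole multiples of 1 step per library, which gave the estimated reads. Since few values are low, these multiples were taken as estimates rather than as recovered counts, and count models were not run. All read numbers and counting errors given here rest on these estimates. The column initials give the group, and the column numbers do not match replicate numbers of the labels. Libraries of a group differed beyond sampling noise (chi-square per degree of freedom 26.4 and 28.3 on estimated reads). How counting treated strand is not stated by the labels, so antisense and overlapping genes cannot be told apart.

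The analysis used log2(normalized count + 1) and a filter at a mean of 10 that removed no row (lowest mean 40.1). The limma 3.58.1 test in R 4.3.3 was two-sided and had an intensity trend, and its p-values were adjusted over 11747 rows by Benjamini-Hochberg. With 2 libraries a group the smallest p of an exact permutation test is 0.333. Coding lengths came from GENCODE M21 transcripts matched by accession (40 of 41 members), since no protein table was used here. RefSeq windows were read with Python 3.11.15 and pandas 2.3.3. The table's symbols were used, and blank ones were filled by RefSeq accession. Named in full were members past the test and, per family, those of smallest p and of highest count, with other members given as examples. Partner genes past the test were named, or else the 2 of smallest p in a list, with a few further examples chosen after their values were seen; cell type markers are given as counts and sums. Members and lists were chosen with earlier results of these data known. The induced gene and some listed genes are not reported here. Alternatives covered the pseudocount, filter, scaling, variance model, fold threshold, length, pairing and each library left out.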

Additional observations from a re-analysis of the deposited data

How the results depend on the processing

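With the pseudocount at 0.5 or 5, the filter dropped or raised to 50, and scaling by quantiles or TMM, the 4 calls of Pcdh7, Cdh6, Celsr1 and Fat3 were kept and all 41 members kept their sign. Robust empirical Bayes added Pcdh9, and gave 419 calls over all rows (132 higher, 287 lower) in place of 278 (68 and 210), and 8 partner calls in place of 4. Without an intensity trend 1 member was called (0 higher, 1 lower), 105 rows in all (27 and 78) and 2 partners. At a change of at least 2-fold 1 member was called (0 higher, 1 lower), with 98 rows (21 and 77) and 1 partner. Leaving out 1 library at a time gave from 1 to 6 members (0 to 2 higher, 1 to 4 lower), 44 to 494 rows (2 to 156 higher, 42 to 338 lower) and 1 to 6 partners. The cause of these differences was not tested, except that such fits have fewer samples. Between 37 and 38 of the 41 members kept their sign in them.

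With a replicate block that pairs library 1 with 2 and 7 with 8, 26 members were called (8 higher, 18 lower), with 3508 rows (1636 and 1872) and 28 partners. That fit has 1 residual degree of freedom and infinite prior degrees of freedom, so each p-value rests on a variance pooled over all rows rather than on the gene's own spread. Deviations from the group means correlated at 0.63 within each pair, which with 2 libraries a group is the same number for both pairs. The labels do not say that the numbers mark a shared culture or day, so this pairing is a hint from the data only. Depth limits the low members: at 51 to 147 reads in Pcdhb10, counting error alone gives an SE of 0.16.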
